A study of Drosophila melanogaster with 2 samples.

Results

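The 32 genes described here encode proteins of the spliceosome and SR proteins that steer splice site choice, out of 13945 protein-coding genes on the main chromosome arms of *Drosophila melanogaster*. They were taken from a fixed list of names, chosen with earlier results of these data known, and looked up in Ensembl release 115. Of these names, 30 matched a gene symbol and 2 matched a synonym, LSm4 (annotated as LSm-4) and SmG (annotated as SNRPG). The synonym SmG is also held by smg, which encodes the translational repressor Smaug, so the gene of the Sm protein was chosen by hand. Both genes carried an IDR peak in the body or within 1 kb, so that count is the same with either, and the other counts were not made with smg. The list was sorted into 17 proteins of the small nuclear ribonucleoproteins (snRNPs), 8 splicing regulators and 7 other spliceosome factors. LSm1, whose ring acts in mRNA decay, was counted among these 7 although that ring is not the one on U6.

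Chromatin immunoprecipitation was done on whole embryos collected 0 to 24 hours after laying, of both sexes pooled, from flies with a transgene that fuses green fluorescent protein (GFP) to the C terminus of Zfh2. Zfh2 is a zinc finger and homeodomain protein. There was 1 group with 2 biological replicates, the sample description names an antibody against GFP, and the antibody field names zfh2 itself. No other genotype, stage or treatment was compared, so the values describe where the fusion was called over all tissues and embryonic ages at once, and no control group gives a contrast.

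The spliceosome removes introns from precursor mRNA. Sm proteins form a ring on the spliceosomal small nuclear RNAs, LSm proteins form a related ring on U6 or on mRNA undergoing decay, and the U1, U2 and U4/U6.U5 particles assemble on the intron in turn. SR proteins bind exons and recruit these particles. Tra, and Tra2, which joins it at exonic enhancers, are splicing regulators known for their part in sex determination in the fly.

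Peaks were deposited as lists on the dm6 genome build. The list that passed the threshold on the irreproducible discovery rate (IDR) held 4344 peaks, and the relaxed lists held 30000 calls for the pooled replicates, 30000 for replicate 1 and 29690 for replicate 2. Signal is the caller's own value for a peak, a score that ranks peaks inside 1 list and cannot be compared between lists. It ran from 64.9 to 2951 in the IDR list, with a median of 113. All 4344 IDR summits were also the 4344 strongest pooled calls, so a member in the IDR list is a member whose pooled signal reached about 64.9. Relaxed calls below that hold background together with sites. Read depth is unknown here.

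The windows below surround the IDR summit by 50 bp on each side and are shown because they hold the summits of highest signal among members within 500 bp of a start site of the member on the arms from which sequence is printed. They are given on the strand of the member, 5′ to 3′, from the RefSeq dm6 genome. Capitals mark TATCGATA, the word of the replication-related element (DRE), to which the factor Dref binds, and it was found in the B52 window alone among the 5. The windows are chr3L:21433306-21433406 for barc, chrX:16640729-16640829 for SmG, chr3R:16342159-16342259 for SF2, chrX:16359166-16359266 for U2af50 and chr3R:13661191-13661291 for B52, with the B52 window on the plus strand and the others on the minus strand.
barc: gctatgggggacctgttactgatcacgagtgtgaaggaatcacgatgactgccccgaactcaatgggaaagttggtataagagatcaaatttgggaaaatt
SmG: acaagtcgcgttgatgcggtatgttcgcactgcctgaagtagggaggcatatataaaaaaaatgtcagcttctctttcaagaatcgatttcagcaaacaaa
SF2: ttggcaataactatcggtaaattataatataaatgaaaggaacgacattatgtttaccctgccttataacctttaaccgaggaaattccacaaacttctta
U2af50: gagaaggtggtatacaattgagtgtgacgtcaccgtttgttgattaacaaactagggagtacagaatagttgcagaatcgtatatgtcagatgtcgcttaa
B52: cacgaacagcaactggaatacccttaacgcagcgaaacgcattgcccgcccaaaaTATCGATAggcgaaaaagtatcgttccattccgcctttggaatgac

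How often the members carry a peak was asked first. An IDR summit in the gene body or within 1 kb of it was present at 19 of the 32 members, 59.4%, where 4654 of 13945 protein-coding genes, 33.4%, had one. Restricting the protein-coding genes to the members' range of lengths, 467 to 12747 bp, gave 3821 of 12012, 31.8%. A summit lay within 500 bp of a start site of the gene itself at 17 members, against 24.6% of protein-coding genes. The members' share thus rests on the flanks of the genes. With the summit required inside the gene body, 2 of 32 members (6.25%) carried one and 11.7% of protein-coding genes did, so the order turned round. With each peak given to the gene with the nearest start site, 9 members (28.1%) and 22.4% of protein-coding genes carried one, and with the stronger 2172 peaks of the IDR list alone 8 members (25.0%) and 20.6% did. Members are genes and not replicates of a condition, so these shares are given without a test.

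Regulators carried peaks in 6 of 8 cases (75.0%), other spliceosome factors in 5 of 7 (71.4%, LSm1 among the 5) and snRNP proteins in 8 of 17 (47.1%). The order of regulators and snRNP proteins rests on how a peak is given to a gene. With a summit required within 500 bp of an own start site, 4 of 8 regulators (50%) and 8 of 17 snRNP genes (47.1%) carried one. When each peak was given to the gene with the nearest start site, 2 of 8 regulators (25.0%) and 6 of 17 snRNP genes (35.3%) did, so the order turned round. Of the 7 other factors, 5 carried one within 500 bp of an own start site. By the nearest start site only 1 of the 7, Prp19, did. The shares of protein-coding genes under these rules were 33.4%, 24.6% and 22.4% in turn. With 8 regulators, the order rests on few genes.

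**Figure D1:**
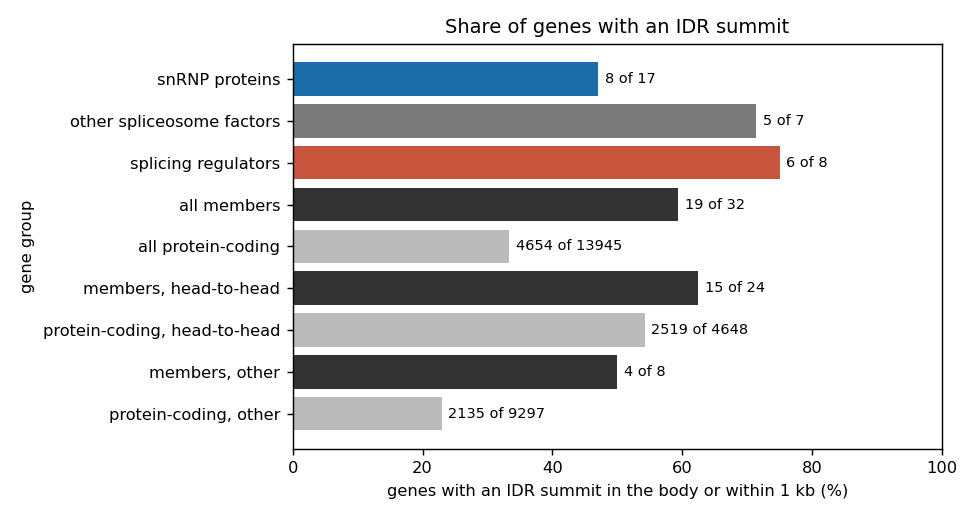
Share of genes with an IDR summit in the body or within 1 kb, in percent, for the members by role, for all protein-coding genes, and for both divided by whether a protein-coding neighbour starts head to head within 1 kb. The bar of all members reaches 59.4% and that of all protein-coding genes 33.4%, and among head-to-head genes the bars are 62.5% and 54.2%.

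The members also differed from protein-coding genes as a whole in how they lie beside their neighbours, which was examined after the data were seen. A protein-coding neighbour started on the opposite strand, transcribed away from the member and at most 1 kb from its 5′ end, at 24 of the 32 members (75.0%) and at 4648 of 13945 protein-coding genes (33.3%). Among such head-to-head genes 54.2% of protein-coding genes carried an IDR summit, and 15 of the 24 members (62.5%) did. Of the genes with no such neighbour, 23.0% of the protein-coding genes and 4 of the 8 members (50%) carried one. Head-to-head members were 13 of the 17 snRNP genes, 6 of the 7 other factors and 5 of the 8 regulators. The part of this arrangement in the members' share was not tested.

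Every one of the 24 IDR summits counted for a member also lay in the body or within 1 kb of another protein-coding gene, whereas 72.4% of the 6718 pairs of a summit and a protein-coding gene were shared in this way. The nearest start site belonged to the member itself for 9 of the 24 summits (37.5%), against 56.8% of all such pairs. Only 2 of the 24 summits lay in a member's body, against 36.6% of all such pairs. Of the others, 17 lay on the 5′ side of the member and 5 past its 3′ end. Within 500 bp of an own start site lay 18 of the 24 summits, against 58.6% of all such pairs. Of these 18, 16 were upstream, at a median of -165 bp over the 18. All promoter summits of protein-coding genes had a median of -106 bp.

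**Figure D2:**
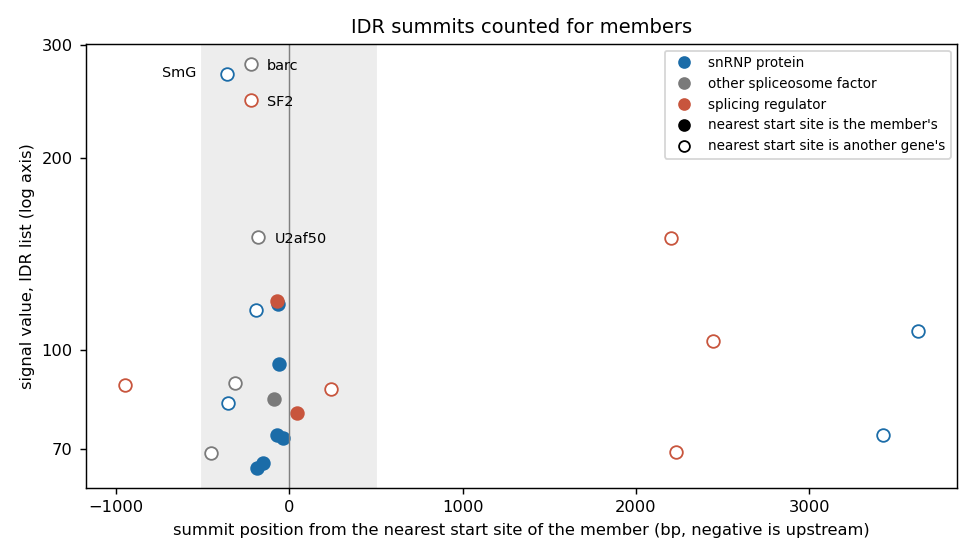
Position of each of the 24 IDR summits from the nearest start site of its member, in bp, against its signal on a log axis, with the 500 bp on each side shaded. Filled circles are summits whose nearest start site is the member's own, and the 4 highest signals, at barc, SmG, SF2 and U2af50, are all open circles.

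Among snRNP genes SmG carried the highest signal. SmG (X 16639810 to 16640419) encodes a subunit of the Sm ring. Its summit at X 16640779 reached an IDR signal of 270.9, against 136.0 for the call of replicate 1 and 138.2 for that of replicate 2, each on the scale of its own list, and ranked 500, 579 and 418 in the pooled, replicate 1 and replicate 2 lists. It lay 360 bp upstream of SmG and 189 bp upstream of mthl1, which encodes a methuselah-like receptor, so the nearest start site is that of mthl1. Both replicates placed it within 19 bp.

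The gene snf, which encodes the fly protein that serves in both U1 and U2 snRNPs, had a summit 67 bp upstream of its start site, the nearest start site of any gene. The IDR signal was 118.0, and the replicate calls had 65.8 and 51.1, at ranks 2045, 1980 and 2294. The genes of the U1 proteins snRNP-U1-C and snRNP-U1-70K, which help U1 to recognise the 5′ splice site, both carried summits. At snRNP-U1-C the signal was 115.6 (53.6 and 68.1 in replicates 1 and 2) between that gene and gukh, 192 bp upstream of the former and 183 bp upstream of the latter.

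At snRNP-U1-70K 3 summits were counted, more than at any other member. The strongest, with a signal of 107.1, lay past the 3′ end and 467 bp upstream of Sumo, which encodes the small ubiquitin-like modifier. A second 199 bp away had 73.6, and both lay in the same call of replicate 2. The summit at the gene's own promoter, 186 bp upstream, was the weakest of the 24 with a signal of 65.5, just above the lowest value of the IDR list, and its replicate values were 24.9 and 39.8.

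Of the Sm ring apart from SmG, SmD2 (72.9, 33 bp upstream) and SmD3 (73.7, 71 bp upstream) carried summits near the bottom of the IDR list. Their calls ranked 3600 and 3186 in replicate 1 but 4439 and 6555 in replicate 2, outside the 4344 strongest calls there. The rest, SmB, SmD1, SmE and SmF, had none. The pooled signals of the first 3 of these were 47.6, 45.4 and 44.5, and those calls lay within 211 bp of their start sites. SmF was not called in the pooled list, and its replicate calls ranked 27896 and 20766.

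Among the proteins of the larger particles, Sf3b1, the U2 protein at the branch point, had a signal of 95.1 at 58 bp upstream, with 42.9 in replicate 1 and 51.5 in replicate 2. Prp31, of the U4/U6 particle, had 82.6 and 66.6 at 354 and 153 bp upstream, and the former was nearer to Msh6, a mismatch repair gene. Both Prp31 summits lay in the same call of replicate 2. Prp3, also of U4/U6, stayed below the IDR list with a pooled signal of 45.2 (33.7 in replicate 1, rank 4860, and 14.1 in replicate 2, rank 11062). Prp8, the large protein at the catalytic centre, had pooled calls of at most 23.3, at rank 15786. The LSm members sorted with the snRNP proteins carried no IDR summit, with pooled signals of 36.2 for LSm3, 39.2 for LSm4 and 21.6 for LSm7. LSm genes besides these and LSm1 are not members, so the ring on U6 is covered only in part. LSm4 shares its span with CG17768, so its calls cannot be given to one of them.

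The other factors held the strongest member summit. It lay at barc, the fly relative of human TAT-SF1 (3L 21420388 to 21433134). Its IDR signal was 280.3, with replicate values of 113.3 and 172.8, at pooled, replicate 1 and replicate 2 ranks of 456, 814 and 265. The summit at 3L 21433356 was 222 bp upstream of barc and 66 bp upstream of Aef1, which encodes a zinc finger protein and starts 288 bp from barc. U2af50, the large subunit of the factor that reads the polypyrimidine tract, had a signal of 150.1 (60.4 and 88.9 in replicates 1 and 2) at 177 bp upstream, and 58 bp upstream of PIG-Q. Its small partner U2af38, which reads the AG at the end of the intron, had 69.0 at 452 bp upstream, and that summit was 11 bp inside Stip1, a cochaperone gene.

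LSm1, of the LSm ring that acts in mRNA decay, had 88.7 at 310 bp upstream, 19 bp from the start of Xpd, a helicase gene. Prp19, the ubiquitin ligase of the complex that bears its name, had 83.8 at 90 bp upstream, and there the nearest start site was its own. Prp38, needed in yeast for activation of the spliceosome, had a strongest pooled signal of 39.4, at rank 7684. At crn, which encodes the crooked neck protein of the Prp19 complex, none of the 4 dm6 lists had a call in the body or within 1 kb.

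Among splicing regulators SF2, the fly relative of human SRSF1, led with a signal of 246.2 (3R 16338943 to 16341988). Replicate 1 gave 105.8 at rank 923 and replicate 2 gave 137.7 at rank 422. The replicate summits lay within 2 bp of the IDR summit at 3R 16342209, which was 221 bp upstream of SF2 and 109 bp upstream of pad, a zinc finger gene. B52, an SR protein, had 119.6 (73.8 and 47.4) at 70 bp upstream, and its start site was the nearest. That same summit was counted for Hrb87F, an hnRNP gene that starts 710 bp from it. SC35, the relative of human SRSF2, had 86.8 in an intron, 239 bp downstream of its start site and 26 bp upstream of that of eRF3, a translation termination gene.

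For Srp54 and Rsf1 no summit lay within 500 bp of an own start site. Srp54, an SR-type protein, had a signal of 150.0 (96.1 and 51.0) past its 3′ end and 140 bp upstream of yip2, and 88.3 at 946 bp upstream, inside Etl1. Rsf1, which antagonises SR proteins, had signals of 103.4 and 69.3 past its 3′ end, both in the same call of replicate 2. The weaker of these lay in no call of replicate 1, the one exception among the 24 summits, of which 23 lay in a call of both replicates.

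The sex determination partners differed in the lists. The tra2 gene had a summit of 79.7 in its 5′ untranslated exon, 44 bp downstream of its start site (51.5 in replicate 1 and 28.9 in replicate 2), at rank 3390. The tra gene had no IDR summit, and its strongest pooled call had a signal of 22.6 at rank 16621. The SR protein gene x16 had 7 pooled calls in its body or within 1 kb, the strongest at 44.5, below the IDR list.

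Relaxed calls were near universal. A pooled call was present at 30 of 32 members, against 73.5% of protein-coding genes. A call of replicate 1 was present at 31, against 74.3% of protein-coding genes, and a call of replicate 2 at 31, against 73.7%. Since relaxed lists hold background, these shares do not count sites. Of the 13 members without an IDR summit, 11 had a pooled call, with signals of 21.6 to 47.6 and −log10 q of 0.296 to 3.05. Members just inside the IDR list were U2af38 at 69.0 and SmD2 at 72.9, and those just outside were SmB at 47.6 and SmD1 at 45.4.

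**Figure D3:**
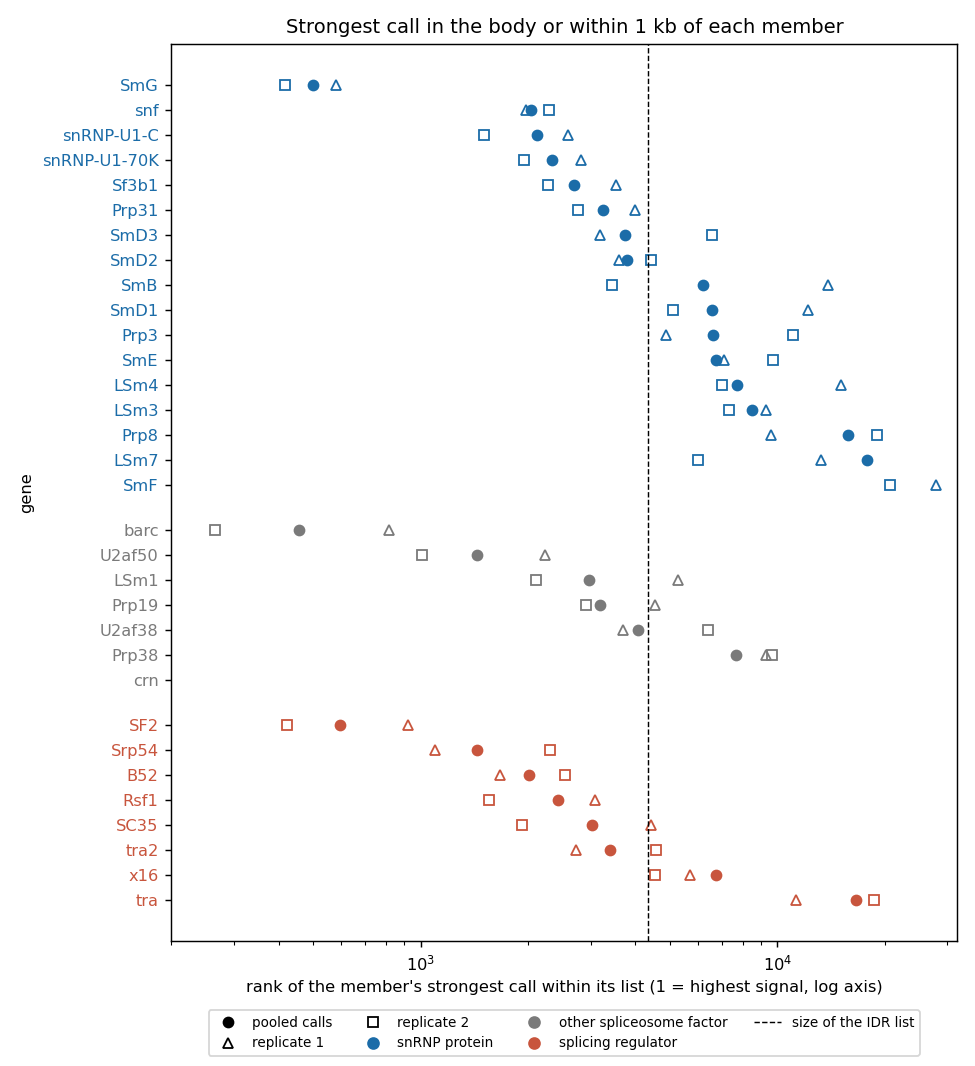
Rank of the strongest call in the body or within 1 kb of each member, on a log axis where 1 is the highest signal, in the pooled list (filled circles), replicate 1 (triangles) and replicate 2 (squares). The dashed line marks 4344, the size of the IDR list, and 19 members lie left of it in the pooled list, 16 in replicate 1 and 16 in replicate 2. The crn row is empty.

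Replicates ranked the members in different order. Of the 31 members called in both replicates, the strongest call ranked higher in replicate 2 for 19 and in replicate 1 for 12. Within the 4344 strongest calls, 12 members were present in both replicates. SmD2, SmD3, U2af38 and tra2 were so placed in replicate 1 alone, and SmB, Prp19, SC35 and LSm1 in replicate 2 alone. Each replicate thus placed 16 of 32 members there, against 32.9% of protein-coding genes in replicate 1 and 33.4% in replicate 2. The overlap of replicates and the order of ranks were not computed over all protein-coding genes. Neither is therefore shown to be particular to the members. By signal the member summits were mostly in the lower part of the IDR list, where 3 of the 24 lay in its strongest 1086 and 8 in its strongest 2172.

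Sequence words were few at the summits. TATCGATA was found in 2 of the 24 member windows, 101 bp each, and in 4.01% of all IDR windows. GGTCACAC (reverse complement GTGTGACC), part of the promoter motif bound by M1BP, was in 1 member window and 2.14% of all. TAATTA and TCATTA (reverse complement TAATGA), core words of homeodomains, were in 0 member windows and in 6.98% and 6.05% of all IDR windows. Both strands were searched, and words that overlap were each counted. A match describes letters and not a bound site. The windows besides B52 that hold a word of 8 letters are shown next, on the strand of the member, with the word in capitals. They lie at chr2L:6968260-6968360 (minus strand, past the 3′ end of snRNP-U1-70K) and chr2L:568232-568332 (plus strand, upstream of Sf3b1).
snRNP-U1-70K: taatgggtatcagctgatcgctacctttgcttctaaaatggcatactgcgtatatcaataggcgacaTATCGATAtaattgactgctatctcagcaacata
Sf3b1: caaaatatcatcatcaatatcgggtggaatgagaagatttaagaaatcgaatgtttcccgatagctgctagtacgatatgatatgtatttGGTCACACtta

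In the promoters of the members, from 250 bp before to 50 bp after the 5′ end, TATCGATA was in 8 of 32 (9.36% of protein-coding promoters), at SmB, SmE, snf, snRNP-U1-C, U2af38, SF2, B52 and crn. GGTCACAC was in 9 of 32 (7.70% of promoters), at SmD2, SmE, SmF, SmG, snRNP-U1-70K, Prp3, Sf3b1, tra and barc. TAATTA was in 13 of 32, against 20.4% of protein-coding promoters, and TCATTA in 3 of 32, against 17.3% of protein-coding promoters. The crn promoter thus held TATCGATA although crn had no call, and the strongest summits, at barc, SmG, SF2 and U2af50, had none of these words within 50 bp.

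Other genes of the pathway were counted from lists drawn up beside the members. Of 36 further genes of the core spliceosome and snRNP assembly, 19 (52.8%) carried an IDR summit, against 33.4% of protein-coding genes. Within 500 bp of an own start site 14 of the 36 had one, against 24.6% of protein-coding genes. The strongest were at pea, a helicase gene of the Prp22 type (451.7), Phf5a, of the SF3b complex (285.0, 43 bp upstream), and Slu7, a second-step factor (231.3). The pea summit lay past the 3′ end, 4437 bp from the start site of pea, and nearest to that of CG13018. The Slu7 summit was 55 bp upstream of Slu7, but the nearest start site was that of Pkc98E. Of 31 further splicing regulators, 22 (71.0%) carried an IDR summit, against the same 33.4% of protein-coding genes. Within 500 bp of an own start site 16 of the 31 had one, against 24.6%. The strongest were at mub, a KH-domain protein gene (580.8, 924 bp downstream of the nearest of its start sites), Doa, the kinase that acts on SR proteins (353.8, 66 bp upstream), and mbl, the muscleblind gene (277.1). The mbl summit lay in the gene body, 2831 bp upstream of the nearest mbl start site, and was nearest to the start of lncRNA:CR45997. With the same rule of body or 1 kb, the share was higher for regulators than for core factors both in these lists and in the members, where the order turned round when peaks were given to the nearest start site. That setting was not computed for the further lists, and the part of gene length in these shares was not tested. The members and lists were chosen with earlier results of these data known, and Hrb87F was counted through the summit of B52. The further lists are therefore not an independent second case of regulators above core factors.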

How the data were processed

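ChIP-seq peak lists from 2 replicates of 1 group were used, and the members and lists were chosen with earlier results of these data known. Per the deposited file descriptions, the authors made relaxed calls for each replicate and for the pool against a control alignment, and derived the IDR list from them. Which aligner and caller were used was not given in the sources used here. The deposited signal is a score per peak of unstated scale, and the deposited −log10 values are q-values. The dm3 lists were not used. Genes came from Ensembl release 115, with transposable elements left out. All 32 members had the same start and end in RefSeq Release 6 (the dm6 assembly), whose genome gave the sequences. Coordinates are 1-based. A gene was counted as carrying a peak if any summit fell between 1 kb before its start and 1 kb past its end, so a summit could count for several genes. The step that gives summits to genes was tested on simulated data. All 32 members are named, and for the other lists the 3 genes of highest signal each. An annotation of position for 1 member is not reported here. In the list of regulators, Clk was left out because the symbol is that of the circadian gene Clock, and symbols with no match (8 and 2) were dropped. The head-to-head arrangement was examined after the data were seen. No test was made, since there is 1 group. Python 3.11.15, pandas 2.3.3, numpy 2.4.6 and matplotlib 3.10.9 were used.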

Additional observations from a re-analysis of the deposited data

How the results depend on the processing

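With 1 group there is no contrast to vary, and the alternatives change which calls are used or how they are given to genes. The members' count of 19 was 19 with a margin of 500 bp, 26 with 5 kb and 17 at own start sites within 500 bp. It was 2 with no margin, 9 with peaks given to the nearest start site and 8 in the strongest 2172 peaks. For all protein-coding genes, against 4654, these settings gave 1628 with no margin (11.7%, above the members' 6.25%), 3123 with the nearest start site (22.4%, members 28.1%), 2869 in the strongest 2172 peaks (20.6%, members 25.0%) and 7260 with 5 kb (52.1%, members 81.2%). The snRNP count of 8 was 0 with no margin, 3 in the strongest 2172 peaks and 13 with 5 kb. The regulator count of 6 was 2 with no margin, 2 with the nearest start site and 3 in the strongest 2172 peaks. By construction, the margin sets how far from a gene a summit still counts. The nearest start site setting keeps all IDR summits and changes only the gene that each is given to. The setting of the strongest 2172 peaks uses fewer summits. The strongest pooled calls are the IDR peaks, so that setting repeats the main counts. In the strongest calls of 1 replicate alone the members' count was 16 each, the snRNP count 7 to 8, the regulator count 5 each and the protein-coding count 4589 to 4660. Members whose IDR summit had summits of both replicates within 200 bp numbered 19, and 16 within 100 bp. The IDR list was itself derived from these replicates, so such counts are no separate check of the members. Chosen after seeing the data, leaving SmG out gave 18 of 31 members and 7 of 16 snRNP genes, and adding the other factors to the snRNP genes gave 13 of 24. Read depth is unknown and limits every weak call.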
